A study of Mus musculus with 15 samples.

Results

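The comparison set CD64+ macrophages (mϕ) against CD103-CD11b- dendritic cells (DCs) of the mouse small intestinal lamina propria, the connective tissue under the gut epithelium. It used the 3 arrays labelled CD64+ and the 3 labelled CD64-CD103-CD11b-, which is 6 of the 15 arrays of the series, and covered 19938 genes. The other 9 arrays held the remaining DC subsets, with 3 arrays each for CD103+CD11b+, for CD103+CD11b- and for CD103-CD11b+ cells. All cells came from untreated, healthy wild-type mice, whose age, sex and strain the labels do not give. The study's methods name C57BL/6 as the wild-type strain and describe young adult mice of both sexes for the study as a whole. CD103-CD11b- DCs were CD45+CD11c+MHCII+CD64- cells by the study's DC gate and lacked both integrins. Mϕ were sorted as CD45+Ly6C-MHCII+CD64+CD11b+ cells, so monocytes that carry Ly6C were kept out of them by the gate. The arrays of a population are biological samples per the study, but the number of mice behind an array is not given. The p-values therefore measure the spread between these arrays, and 3 arrays per population limit the precision of every value.

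Mϕ and DCs are both phagocytes that display antigen on MHC class II. Tissue mϕ are long-lived or renewed from blood monocytes, depend on the growth factor receptor CSF1R, and clear dead cells and microbes in place. Conventional DCs arise from bone marrow precursors that depend on the receptor FLT3, and they migrate through lymph to prime T cells. They fall into cDC1, which present material from dead cells to CD8 T cells, and cDC2, which mainly stimulate CD4 T cells. CD103 is an integrin chain that binds E-cadherin of the epithelium, and CD11b is a chain of complement receptor 3. The CD103-CD11b- cells are the DC subset defined by the lack of both. The study describes this small subset as varying in size and mixed in phenotype, and names isolated lymphoid follicles as a possible origin. It left the subset out of its own comparison of the DC subsets. A value of this gate may therefore be that of a mixture of cells.

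Each array carries 1 sample, and its values are log2 signals, so a difference of 1 is a doubling of signal. Differences are given as mϕ minus CD103-CD11b- DCs on this scale. A gene passed, and is called higher or lower in mϕ, where its limma adjusted p was below 0.01 and the size of its difference exceeded 1. Median signals over all genes were 5.00 to 5.14 on the 15 arrays, each of which had 7255 to 7547 genes over 6. Across genes, which are no independent replicates, arrays of a population had a lowest correlation of 0.978 in mϕ and 0.986 in CD103-CD11b- DCs.

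Some arrays stood apart in transcripts of other cells. Mϕ replicate 2 had a mean log2 signal of 8.36 over 25 epithelial markers, against 6.72 and 6.66 on the other mϕ arrays, and 7.17 to 7.55 in CD103-CD11b- DCs. Over 14 pancreatic acinar markers, which encode digestive enzymes, mϕ replicate 2 was at 6.76 and the others at 4.70 and 4.84. CD103-CD11b- replicate 2 was at 8.33 on that list, with 5.41 and 6.01 on replicates 1 and 3. CD103-CD11b- replicate 1 was the array of its population with the most mϕ transcripts, at 6.63 over 19 mϕ markers against 6.06 and 6.26. The 3 mϕ arrays lay at 9.94 to 10.14 on the mϕ list. Results that turn on these arrays are given with and without them.

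**Figure D1:**
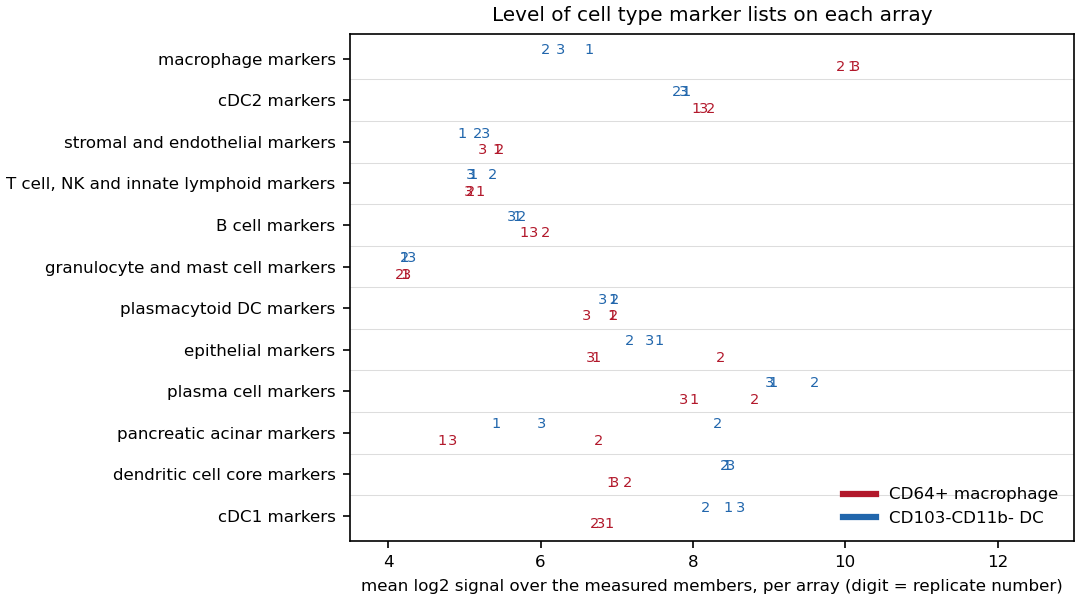
Mean log2 signal over the measured members of each cell type marker list (x axis) on the 3 CD64+ macrophage arrays (red) and the 3 CD103-CD11b- DC arrays (blue), with each digit marking the replicate of that number. The macrophage arrays sit near 10 on the macrophage list and the DC arrays below 7, and replicate 2 of the macrophages lies at 8.36 on the epithelial list, apart from 6.66 and 6.72.

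The genes of the sort followed the gates and are a check of the labels, not a finding. *Fcgr1*, which encodes CD64, had log2 signals of 9.08, 8.69 and 9.0 on the mϕ arrays and 4.55, 3.80 and 3.70 on the CD103-CD11b- arrays. *Itgam*, which encodes CD11b, was at 10.07, 10.23 and 10.42 in mϕ and 7.02, 6.51 and 6.40 in CD103-CD11b- DCs. Neither gene overlapped between the populations. *Itgae*, which encodes CD103, was at 8.61 to 8.96 in CD103-CD11b- DCs although they were sorted as negative for the protein. It was at 4.87 to 5.25 in mϕ, and its mean was 7.84 in the CD103-CD11b+ subset, 10.38 in CD103+CD11b+ DCs and, as the highest mean, 10.90 in CD103+CD11b- cells. *H2-Ab1*, a chain of MHC class II, which both gates required, differed by 0.17 (adjusted p = 0.147). *Ptprc*, which encodes CD45, a marker the study names for both mϕ and DC gates, differed by 0.21 (adjusted p = 0.144). *Itgax*, which encodes CD11c, a marker named in the DC gate, differed by -0.32 (adjusted p = 0.0782). None of these 3 passed.

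Mϕ and CD103-CD11b- DCs differed in 1256 of 19938 genes (6.30%), of which 744 (3.73%) were higher and 512 (2.57%) lower in mϕ. The 15 genes with the largest positive differences included the chemokines *Pf4*, *Ccl7*, *Ccl8* and *Ccl12*, the complement genes *C3ar1*, *C5ar1* and *C1qb*, and the receptors *Mrc1*, *Msr1* and *Fcgr4*. The 15 with the largest negative differences included *Il22ra2*, *Klrd1*, *Plet1*, *Flt3* and *Kit*. The median difference over all genes was 0.0009. Among the genes that passed, 109 higher and 22 lower genes differed by over 3, and 26 higher and 1 lower gene by over 5. A further 1642 genes passed on p and fell short of the log2 threshold. The arrays of the 2 populations did not overlap in 5596 of 19938 genes (28.1%), and in 1253 of the 1256 that passed. Lack of overlap in a gene that passed is therefore no further evidence. In sorted populations measured in bulk, fewer cells that express a gene and less RNA of it per cell cannot be told apart.

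**Figure D2:**
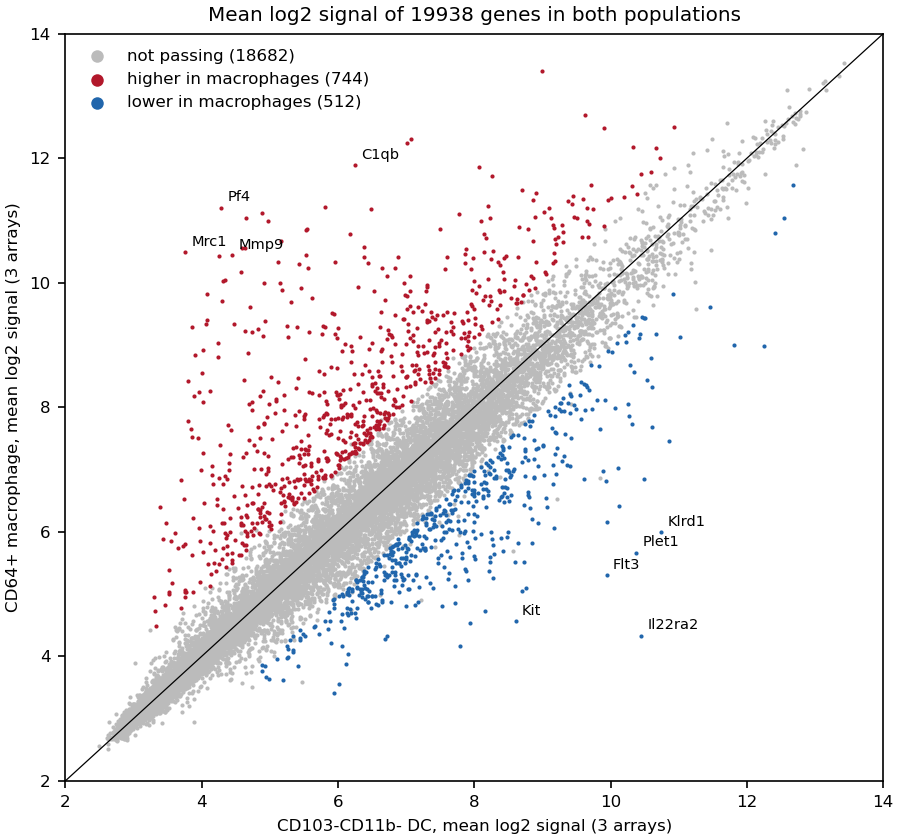
Mean log2 signal of each of 19938 genes over 3 CD103-CD11b- DC arrays (x axis) and 3 CD64+ macrophage arrays (y axis), with the 744 higher genes in red, the 512 lower genes in blue, and equal signal on the line. More genes lie far above the line than far below it, with 26 higher genes and 1 lower gene, *Il22ra2*, past a difference of 5.

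The largest difference was that of *Pf4*, which encodes platelet factor 4, the chemokine CXCL4. Its log2 signals were 11.36, 11.01 and 11.26 in mϕ and 4.43, 4.26 and 4.17 in CD103-CD11b- DCs, a difference of 6.92 (SE 0.19, adjusted p = 2.9e-12). *Mrc1*, the mannose receptor, was at 10.57, 10.42 and 10.48 against 3.85, 3.69 and 3.73, a difference of 6.73 (SE 0.17, adjusted p = 1.55e-12). In both genes every mϕ array lay more than 6 log2 units over every DC array. *Adgre1*, an adhesion receptor gene that marks mouse mϕ, was at 10.71, 10.41 and 10.92 against 5.56, 4.68 and 5.26. *Ms4a7*, a membrane protein gene of the MS4A family, was at 10.58, 10.46 and 10.65 against 5.67, 4.04 and 4.22, so that CD103-CD11b- replicate 1 stood over the other 2 DC arrays. *Gbp2b*, a guanylate-binding protein of antimicrobial defence, had the same order, with 10.90 to 11.14 in mϕ and 5.79, 4.52 and 4.63 in CD103-CD11b- DCs.

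At the other end, *Il22ra2* had the largest negative difference. It encodes a soluble receptor that binds IL-22 and blocks its action on the epithelium. Its log2 signals were 4.02, 4.24 and 4.74 in mϕ and 10.09, 10.67 and 10.60 in CD103-CD11b- DCs, a difference of -6.12 (SE 0.33, adjusted p = 4.24e-09). *Klrd1*, which encodes the lectin-like receptor chain CD94, was at 5.69, 6.62 and 5.69 in mϕ and 10.88, 10.41 and 10.92 in DCs. *Plet1*, a surface protein gene named from placenta, was at 5.40 to 5.97 and 10.01 to 10.63. None of the 3 genes overlapped between the populations, which the rule that picked them required. *Cd7*, which encodes a surface glycoprotein best known from T cells, spread more in mϕ, with 5.47, 5.97 and 7.03, and lay at 10.30, 9.64 and 9.91 in DCs. The calcium-binding proteins *S100a4* and *S100a6* differed by -3.64 and -3.26, and *Napsa*, an aspartic protease, by -3.71. *Lrrk2*, a large kinase, was at 4.60 to 4.88 in mϕ and 7.87 to 8.33 in DCs.

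**Figure D3:**
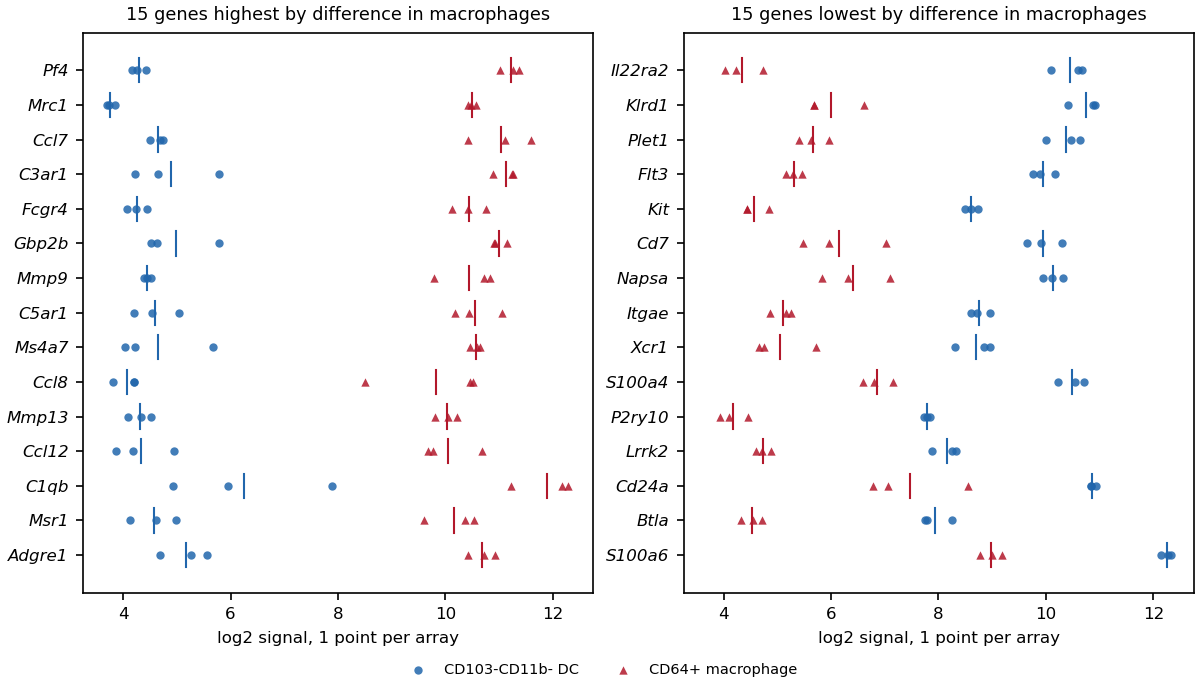
Log2 signal on each array (points, with the mean as a line) of the 15 genes with the largest positive difference (left) and the 15 with the largest negative difference (right) among genes that passed and did not overlap. Red triangles are CD64+ macrophages and blue circles CD103-CD11b- DCs, and CD103-CD11b- replicate 1 is the point farthest right of its population in *C3ar1*, *Gbp2b*, *Ms4a7* and *C1qb*.

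Markers of mϕ and core markers of DCs mostly split along the labels. Counts in this and the later lists stand beside 3.73% higher and 2.57% lower over all genes. Of 19 measured mϕ markers, 16 were higher and none was lower in mϕ, with a median difference of 4.60, but the list holds *Fcgr1*, which was used in the sort. *Mertk*, a receptor for dying cells that marks tissue mϕ, was at 7.31, 7.78 and 7.46 against 4.04, 3.72 and 3.81, a difference of 3.66 (SE 0.13). *Cx3cr1*, the fractalkine receptor of gut mϕ, was at 10.66, 10.57 and 11.13 against 6.79, 5.74 and 6.01. *Cd14*, the co-receptor for bacterial lipopolysaccharide, was at 11.28, 10.93 and 11.36 against 7.32, 6.05 and 6.10. In both genes CD103-CD11b- replicate 1 was the highest array of its own population and remained far below mϕ. *Csf1r* differed by 3.45 (SE 0.20), and its mean of 8.26 in CD103-CD11b- DCs lay between those of CD103-CD11b+ DCs, at 8.70, and of the CD103+ subsets, at 6.97 and 5.08.

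Of 17 DC core markers, 11 were lower and 1 was higher in mϕ, with a median of -1.36. *Flt3* was at 5.29, 5.46 and 5.17 in mϕ and 9.89, 9.76 and 10.17 in CD103-CD11b- DCs, a difference of -4.64 (SE 0.12, adjusted p = 1.55e-12). *Kit*, the stem cell factor receptor, was at 4.43, 4.84 and 4.44 against 8.60, 8.50 and 8.73. Both receptors separated the populations by more than 3 log2 units on every array. *Zbtb46*, a transcription factor of conventional DCs, differed by only -1.07 (SE 0.14) and lost its call without mϕ replicate 2. *Ccr7*, the receptor for migration to lymph nodes, differed by -1.92 and *Dpp4*, a surface peptidase, by -1.69. The member that was higher in mϕ was *Jaml*, an adhesion molecule of leukocytes, by 1.51. The whole list had mean signals of 8.42 to 8.50 on the CD103-CD11b- arrays and 6.93 to 7.14 on the mϕ arrays.

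Most cDC1 markers were lower in mϕ, while cDC2 markers went both ways. Of 18 cDC1 markers, 13 were lower and 2 higher in mϕ, with a median of -1.93. One of them is the sorted gene *Itgae*. *Xcr1*, a chemokine receptor of cDC1, was at 5.72, 4.75 and 4.66 in mϕ and 8.84, 8.30 and 8.95 in CD103-CD11b- DCs. The level of *Clec9a*, through which cDC1 sense dead cells, was 6.27, 6.47 and 5.42 against 9.30, 8.73 and 9.46. Neither overlapped, and the CD103-CD11b- levels lay between those of CD103+CD11b- DCs, with means of 11.02 for *Xcr1* and 10.49 for *Clec9a*, and those of both CD11b+ subsets, with means of 5.65 to 6.52 for the 2 genes. *Btla*, an inhibitory receptor, differed by -3.40 and *Cd24a*, a glycosylated surface protein, also by -3.40, with mϕ replicate 2 at 8.55 against 7.06 and 6.78 on the other mϕ arrays. The 2 members that were higher in mϕ were *Tlr12*, a receptor for profilin, by 2.26, and *Cadm1*, an adhesion molecule, by 2.08. *Irf8*, on which cDC1 depend, was at 9.04, 9.54 and 9.66 in mϕ and 10.05, 10.11 and 10.05 in DCs and did not pass (difference -0.65, adjusted p = 0.0152). *Batf3*, its partner, differed by 0.40 (adjusted p = 0.0542).

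Of 17 cDC2 markers, 7 were higher and 6 lower in mϕ, with a median of 0.35. The higher ones included *Itgam*, a gene of the sort, *Sirpa*, the receptor for CD47, by 1.59, and the lectins *Mgl2* and *Clec10a* by 4.91 and 2.00. The lower ones were *Cd7*, *Cd209d*, *Ltb*, *Irf4*, *Clec4a4* and *Cd209a*. *Irf4*, a transcription factor that cDC2 need, was at 7.02, 8.11 and 6.40 in mϕ and 8.68, 9.20 and 8.77 in DCs, a difference of -1.71 (SE 0.30). *Ltb*, which encodes lymphotoxin beta, was at 5.48, 5.59 and 5.86 against 8.36, 8.51 and 8.0. *Cd209a*, a lectin, differed by -1.06 and lost its call without any of 4 arrays, mϕ replicate 1 or 3 or CD103-CD11b- replicate 1 or 3.

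The 3 genes of complement C1q were all higher in mϕ. C1q opens the classical complement pathway and tags dying cells. *C1qa* was at 12.37, 12.23 and 12.35 in mϕ and 8.35, 6.60 and 6.25 in CD103-CD11b- DCs, a difference of 5.25 (SE 0.39). *C1qb* differed by 5.63 (SE 0.55). *C1qc* was at 12.24, 12.44 and 12.04 against 9.57, 5.72 and 5.72, a difference of 5.23 (SE 0.72). CD103-CD11b- replicate 1 thus held far more C1q signal than replicates 2 and 3, and without it the differences were 5.89, 6.45 and 6.52 for *C1qa*, *C1qb* and *C1qc*. The receptors for complement fragments, *C3ar1* and *C5ar1*, had signals of 10.88 to 11.25 and 10.17 to 11.06 in mϕ and of 4.22 to 5.79 and 4.20 to 5.03 in DCs, with differences of 6.23 and 5.97. Of 29 complement genes, 12 were higher, among them the sort gene *Itgam*, and 1 was lower, with a median of 0.20. The lower gene was *Cd55*, which protects cells from complement, with 3.94 to 4.31 in mϕ and 5.28 to 5.42 in DCs.

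Mϕ clear dying cells and debris through many receptors and bridging proteins. Of 36 measured, 14 were higher and 1 lower, with a median of 0.27. Besides *Mrc1* and *Mertk* they included *Msr1*, a class A scavenger receptor, by 5.59, *Stab1*, stabilin, by 4.70, and *Itgb5*, an integrin chain that binds dying cells through a bridge protein, by 4.85. *Axl*, a relative of MERTK, was at 9.42, 8.94 and 9.40 in mϕ and 4.99, 4.94 and 4.53 in DCs. *Timd4*, a receptor for phosphatidylserine, was at 9.53, 8.39 and 9.45 against 7.07, 6.63 and 6.67. *Cd163*, which takes up haemoglobin, was at 6.92, 6.40 and 6.26 against 3.74, 3.70 and 3.80. *Axl*, *Timd4* and *Cd163* did not overlap between the populations. The lower member was *Anxa1*, annexin A1, which dampens inflammation, with a difference of -2.79 (SE 0.18), and 2 members were lower without CD103-CD11b- replicate 1.

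Of 15 Fc receptor genes, 6 were higher and none was lower, with a median of 0.28. *Fcgr4*, a receptor for IgG2 antibodies, was at 10.41, 10.12 and 10.76 in mϕ and 4.44, 4.08 and 4.24 in CD103-CD11b- DCs, a difference of 6.18 (SE 0.18). *Fcgr3* differed by 4.92, *Fcrls*, an Fc receptor-like scavenger gene, by 4.29 and the inhibitory receptor *Fcgr2b* by 3.34. *Fcgr1* is a gene of the sort.

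Degradation and lipid genes followed. Of 42 lysosomal proteases and hydrolases, 19 were higher and 1 lower in mϕ, with a median of 0.96. *Lgmn*, which encodes legumain, was at 11.92, 11.53 and 12.13 in mϕ and 8.02, 8.13 and 8.08 in DCs, a difference of 3.78. Cathepsins L, B, D and S (*Ctsl*, *Ctsb*, *Ctsd*, *Ctss*) differed by 2.56, 2.12, 1.74 and 1.19. The lower member was cathepsin E (*Ctse*), with -1.40, and its call was lost without mϕ replicate 1 or 3 or CD103-CD11b- replicate 2. Of 34 genes of lipid and cholesterol handling, 12 were higher and 2 lower, with a median of 0.60. *Apoe*, a carrier of cholesterol, was at 13.42, 13.33 and 13.45 in mϕ and 10.77, 8.0 and 8.22 in CD103-CD11b- DCs, with a difference of 4.40 (SE 0.50), and of 5.29 without CD103-CD11b- replicate 1. *Abca1*, which exports cholesterol, was at 6.99 to 7.01 in mϕ and 4.23 to 4.59 in DCs, and *Nr1h3*, the sterol-sensing receptor LXRα, differed by 1.91. The 2 lower genes serve cholesterol synthesis: *Srebf2*, its transcription factor, was at 8.21 to 8.24 in mϕ and 9.37 to 9.43 in DCs, and the enzyme gene *Hmgcs1* differed by -1.10.

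Of 25 iron and haem genes, 7 were higher and none was lower, with a median of 0.33. *Hmox1*, haem oxygenase, was at 9.82, 11.12 and 10.47 in mϕ and 7.95, 7.87 and 7.78 in DCs. *Slc40a1*, ferroportin, which lets iron out of cells, was at 6.35, 4.89 and 6.35 against 3.61, 3.56 and 3.50. Both were above all DC arrays on every mϕ array, with mϕ replicate 2 the highest for *Hmox1* and the lowest for *Slc40a1*.

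Many chemokine ligands, which recruit leukocytes, were higher in mϕ. Of 32 ligands, 19 were higher and 1 was lower in mϕ, with a median of 1.44, and of 23 receptors, 4 were higher and 3 lower, with a median of 0.03. *Ccl7*, a ligand that draws monocytes, was at 11.60, 10.42 and 11.10 in mϕ and 4.74, 4.50 and 4.69 in CD103-CD11b- DCs. Its relatives *Ccl2*, *Ccl8* and *Ccl12* differed by 5.20, 5.75 and 5.71, and mϕ replicate 2 was at 8.51 for *Ccl8* against 10.45 and 10.51. *Ccl4* was at 12.13 to 12.26 in mϕ and at 10.17 to 10.61 in DCs. The lower ligand was *Ccl22*, which attracts regulatory T cells, with 5.41 to 5.56 in mϕ and 6.12 to 6.98 in DCs (difference -1.06, SE 0.23), and its call was lost without mϕ replicate 3 or CD103-CD11b- replicate 1 or 3. Without mϕ replicate 2 there were 2 lower ligands. Among receptors, *Cmklr1*, the chemerin receptor, differed by 4.85, *Ccr1* by 2.03 and *Ccr2*, the monocyte receptor, by 1.48. *Ccr9*, a gut-homing receptor, was at 5.95, 6.30 and 5.21 in mϕ and 8.66, 9.10 and 8.78 in DCs.

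Of 37 cytokine genes, 12 were higher and 2 lower, with a median of 0.27. *Il10*, the anti-inflammatory cytokine of gut mϕ, was at 7.63, 8.46 and 7.78 in mϕ and 4.56, 4.87 and 4.78 in DCs, a difference of 3.22 (SE 0.19, adjusted p = 1.32e-08). *Igf1*, a growth factor, differed by 3.12, *Osm*, oncostatin M, by 3.0, *Il15* by 2.66 and *Tnf* by 2.11. *Il1b*, an inflammatory cytokine, was at 11.07 to 11.97 in mϕ and 10.38 to 10.61 in DCs, and its difference of 0.94 (adjusted p = 0.00805) fell short of the log2 threshold. *Il12b*, a subunit of IL-12 and IL-23, was at 5.28 to 5.64 and 4.70 to 5.85, and these ranges overlap. The second lower gene beside *Il22ra2* was *Il6*, with 4.01 to 4.68 in mϕ and 5.53 to 6.41 in DCs. Of 28 genes of the IL-10 and TGFβ pathways, 10 were higher and none was lower, with a median of 0.55. *Tgfbr1* and *Tgfbr2*, which encode the TGFβ receptor chains, differed by 1.81 and 1.49, *Il10ra* by 1.26 and *Tgfbi*, a matrix gene induced by TGFβ, by 2.47.

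Of 23 growth factor receptors, 7 were higher and 2 lower in mϕ, with a median of 0.58, and the lower ones were *Flt3* and *Kit*. *Tnfrsf11a*, the receptor RANK, differed by 2.18 and *Csf3r*, the receptor for granulocyte colony-stimulating factor, by 2.19. The GM-CSF receptor chains *Csf2ra* and *Csf2rb* differed by 0.58 (adjusted p = 0.00867) and 0.06 (adjusted p = 0.818) and did not pass.

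Transcription factors divided by lineage too. Of 27 listed for mϕ, 12 were higher and 1 lower, with a median of 0.91. *Maf*, a regulator of mϕ identity, was at 7.72, 7.90 and 8.03 in mϕ and 5.42, 5.43 and 5.25 in DCs. *Zeb2*, a repressor of the cDC1 fate, was at 9.52, 9.56 and 9.52 against 6.77, 6.49 and 6.64. *Cebpb* differed by 1.99 and *Tfec* by 3.56, with mϕ replicate 2 at 6.42 against 8.29 and 7.83. The lower gene was *Bhlhe40*, with -2.15. Of 31 factors of DCs and lymphoid cells, 10 were lower and 2 higher, with a median of -0.41, and 6 were lower when only the 6 arrays entered the fit. *Bcl11a* differed by -2.49, *Spib* by -2.30 and *Id2* by -1.91. The 2 higher ones were *Hes1*, a Notch target, by 2.82, and *Pou2f2* by 1.20, whose call was lost without CD103-CD11b- replicate 2.

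MHC class II, which presents antigen to CD4 T cells, was part of both gates. Of 16 genes of class II presentation, 2 were higher and 2 lower, beside 3.73% and 2.57% of all genes, with a median of 0.18. *Cd74*, the invariant chain, was at 13.06 to 13.21 in mϕ and 12.89 to 12.91 in DCs, and *Ciita*, the master regulator, differed by 0.12 (adjusted p = 0.789). The 2 lower genes form H2-O, which restrains peptide loading: *H2-Oa* was at 6.83, 6.63 and 6.97 in mϕ and 10.04, 9.64 and 10.10 in DCs, and *H2-Ob* differed by -2.51. The 2 higher ones were the proteases *Lgmn* and *Ctss*. Of 27 costimulators and coinhibitors, 6 were higher and 2 lower, with a median of 0.05, and 3 were higher when only the 6 arrays entered the fit. *Cd80* and *Cd86* differed by 0.18 and 0.05 and overlapped, *Cd40* differed by 0.98 and fell short of the log2 threshold, and *Vsir*, the coinhibitor VISTA, was at 10.19, 9.88 and 10.60 in mϕ and 7.51, 7.63 and 7.60 in DCs. Of 24 genes of DC maturation and migration, 7 were lower and 3 higher, with a median of -0.47. The higher ones were *Apol7c*, by 3.33, *Cd83*, by 1.04, and *Ebi3*. *Traf1*, a signalling adaptor, differed by -2.29, while *Fscn1*, which builds dendrites, differed by -1.42 and lost its call without mϕ replicate 1 or 2 or CD103-CD11b- replicate 1.

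Toll-like receptors detect microbial products. Of 23 Toll-like receptors and adaptors, 13 were higher and 1 lower, with a median of 1.25. *Tlr7*, a sensor of single-stranded RNA, was at 8.77, 8.11 and 8.41 in mϕ and 4.06, 3.51 and 3.85 in DCs, and *Tlr4*, the receptor for lipopolysaccharide, was at 8.11, 7.16 and 8.05 against 3.81, 3.66 and 3.95. *Tlr1* differed by 3.63 and *Tlr9*, a sensor of bacterial DNA, by 1.59. The lower gene was *Tlr3*, whose product senses double-stranded viral RNA, at 7.43, 6.53 and 7.70 in mϕ and 9.57, 8.75 and 9.64 in DCs. Of 21 NOD-like receptor and inflammasome genes, 4 were higher and none was lower, with a median of 0.50, and 8 were higher without mϕ replicate 3. *Nlrp3* and *Nod2* differed by 0.50 (adjusted p = 0.184) and 0.13 (adjusted p = 0.487), while *Nlrc4* differed by 1.27.

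C-type lectins bind sugars of microbes and of the host, and 16 of 36 measured were higher and 5 lower in mϕ, with a median of 0.55. The inhibitory lectin *Clec4a3* was at 9.16, 9.26 and 9.44 in mϕ and 4.09, 3.56 and 3.94 in DCs. *Clec4a1* differed by 5.32, with DC replicates at 6.59, 4.45 and 5.59, *Clec4n*, which encodes dectin-2, by 4.07 and *Clec7a*, which encodes dectin-1, by 1.59. Lower in mϕ were *Clec9a*, *Cd209d*, *Ly75*, *Clec4a4* and *Cd209a*. Among 31 paired receptors of the Siglec, CD300, LILR, PILR and TREM families, 12 were higher and 3 lower, with a median of 0.86. *Siglec1*, sialoadhesin, was at 9.37, 8.67 and 9.04 in mϕ and 4.22, 4.31 and 4.20 in DCs. *Lilra5* differed by 5.08. *Trem2* differed by 0.91 and fell short of the log2 threshold, and *Siglecg*, *Trem1* and *Cd300c* were lower, with differences of -2.37, -1.81 and -1.79.

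Among enzymes and secreted proteases, the matrix metalloproteinases had the largest differences. *Mmp9*, a gelatinase, was at 10.72, 9.78 and 10.82 in mϕ and 4.39, 4.45 and 4.51 in DCs, a difference of 5.99 (SE 0.21). *Mmp13*, a collagenase, was at 10.22, 9.81 and 10.05 against 4.51, 4.09 and 4.34. *Mmp14*, a membrane protease, differed by 4.46, and *Adamdec1*, a gut mϕ protease, by 3.37, with mϕ replicate 2 at 10.17 against 11.36 and 11.09. In all, 10 of 25 matrix proteases and inhibitors were higher and 3 lower, with a median of 0.42, and the lower ones were *Adam8*, *Adam23* and *Mmp23*, the last of which lost its call without CD103-CD11b- replicate 2 or 3. *Mmp12*, the mϕ elastase, was at 5.48 to 6.59 in mϕ and 5.76 to 7.03 in DCs and did not pass (adjusted p = 0.243). Of 26 prostaglandin and leukotriene genes, 8 were higher and 2 lower, with a median of 0.18. *Ltc4s*, which makes leukotriene C4, differed by 3.65 and *Hpgds*, a prostaglandin D2 synthase, by 2.53. Genes of the 5-lipoxygenase route went both ways. *Alox5ap* and *Lta4h* differed by -1.79 and -1.14, while *Alox5*, which encodes the 5-lipoxygenase, was among the higher genes, as was *Ltc4s*. Of 17 purinergic genes, 7 were higher and 2 lower, with a median of 0.22, led by *P2ry12* with 3.47 and *P2ry13* with 3.04, and by *P2ry10* with -3.63 among the lower.

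The phagocyte oxidase, retinoic acid and Notch lists had medians near that of all genes. Over all genes 3.73% were higher and 2.57% lower, and the small counts here are not read as shifts. Of 16 oxidase and nitric oxide genes, *Cybb*, the catalytic chain, was higher by 1.27 and none was lower, with a median of 0.09. Of 18 genes of retinoic acid synthesis and receptors, 2 were higher and 1 lower, with a median of 0.05, and the higher gene *Rxra* lost its call without any of mϕ replicates 1 and 3 and CD103-CD11b- replicates 2 and 3. *Aldh1a2*, the retinaldehyde dehydrogenase of gut DCs, was at 5.05 to 5.35 in mϕ and 5.74 to 6.21 in CD103-CD11b- DCs, and its difference of -0.85 fell short of the log2 threshold. The other DC subsets had means of 7.29 to 7.97. Of 22 Notch and lymphotoxin genes, 4 were higher, among them *Notch1* by 1.86, and 2 were lower, with a median of 0.05, of which *Relb* lost its call without mϕ replicate 3 or CD103-CD11b- replicate 2. *Notch2* differed by -0.25 (adjusted p = 0.316).

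Interferon-stimulated genes, which act against viruses inside cells, had the second highest median of the 42 lists. Of 22 measured, 14 were higher and none was lower in mϕ, with a median of 1.58. *Rtp4* was at 9.36, 8.97 and 9.52 in mϕ and 5.87, 5.02 and 5.32 in CD103-CD11b- DCs, a difference of 3.88. *Ifit3*, an RNA-binding protein gene, was at 9.93, 9.30 and 9.33 against 6.11, 5.73 and 5.91. *Ifit2* differed by 3.03 and *Oas2*, an activator of RNA decay, by 3.29. *Irf7* was at 8.85, 8.52 and 7.26 in mϕ and 7.14, 7.43 and 7.34 in DCs and did not pass (adjusted p = 0.0361), and *Mx1* differed by 0.84. Genes of the *Ifit* and *Oas* families have close relatives, whose signals the probes may share.

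The promoters of the list were searched for the core of the interferon-stimulated response element, here 2 copies of GAAA with any 2 bases between them, on both strands of the 250 bases before each gene's start (RefSeq, build GRCm38.p6, the first start listed per gene). Of the 22 members, 16 had such a window, and 8 of these held the motif. Among the 14 higher genes, 11 had a window and 6 held it, which were *Ifit1*, *Ifit3*, *Oas1a*, *Oas3*, *Rsad2* and *Cxcl10*. Of all 15614 windows of measured genes, 2.93% held it. The windows of the 2 higher genes with the largest differences among those that hold it, *Ifit3* (3.60) and *Oas1a* (2.66), show where the motif lies. They are read 5′ to 3′ along the gene, with the motif of either strand in capitals, from chr19:34583279-34583528 (plus strand) and from chr5:120907526-120907775 (minus strand). These genes were picked after their values were seen. A match describes these letters and is no evidence of binding.
Ifit3: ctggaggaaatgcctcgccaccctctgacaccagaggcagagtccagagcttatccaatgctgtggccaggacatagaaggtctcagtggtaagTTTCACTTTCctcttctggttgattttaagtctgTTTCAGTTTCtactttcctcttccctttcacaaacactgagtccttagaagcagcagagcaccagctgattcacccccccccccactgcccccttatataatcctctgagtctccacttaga
Oas1a: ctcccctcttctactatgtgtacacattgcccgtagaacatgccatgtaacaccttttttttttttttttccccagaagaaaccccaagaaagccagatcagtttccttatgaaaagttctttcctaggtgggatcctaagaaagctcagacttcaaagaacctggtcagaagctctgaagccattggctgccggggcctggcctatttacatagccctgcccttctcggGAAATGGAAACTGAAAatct

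In the window of *Ifit3* the capitals form 2 separate copies, both read on the other strand. In that of *Oas1a* they form 1 run close to the start, in which copies overlap.

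Genes of dividing cells were lower in mϕ. Of 28 genes of the cell cycle and DNA replication, 17 were lower and none was higher, with a median of -1.13. *Mki67*, a marker of proliferation, was at 7.36, 7.74 and 7.67 in mϕ and 8.98, 9.29 and 9.33 in CD103-CD11b- DCs, a difference of -1.61 (SE 0.15, adjusted p = 1.75e-06). *Kif11*, a motor of the mitotic spindle, was at 5.84, 6.46 and 5.75 against 7.58, 8.07 and 8.30. *Ccnb2*, cyclin B2, was at 7.14, 7.33 and 6.71 against 8.71, 8.87 and 9.23. No array of mϕ reached the DC range in these 3 genes. *Bub1*, *Ube2c* and *Top2a* differed by -1.87, -1.85 and -1.45, and *Mcm5*, a replication helicase chain, by -0.93, short of the log2 threshold. The list had mean signals of 6.62 to 6.70 on the mϕ arrays, 7.64 to 8.01 on the CD103-CD11b- arrays and 7.59 to 8.02 on the arrays of the other DC subsets.

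Promoters of cell cycle genes often hold CCAAT boxes and the cell cycle homology region, TTTGAA. In the same kind of window, 23 of the 28 members were matched, of which 17 held CCAAT and 8 held TTTGAA on either strand. Of the 17 lower genes, 13 were matched, and 12 held CCAAT and 7 held TTTGAA. Over all windows the shares were 35.5% and 13.7%. The windows of *Kif11* (-1.97) and *Ccnb2* (-1.87), the 2 lower genes with the largest differences among those that hold both motifs, are given with either motif of either strand in capitals. They span chr19:37376132-37376381 (plus strand) and chr9:70421555-70421804 (minus strand).
Kif11: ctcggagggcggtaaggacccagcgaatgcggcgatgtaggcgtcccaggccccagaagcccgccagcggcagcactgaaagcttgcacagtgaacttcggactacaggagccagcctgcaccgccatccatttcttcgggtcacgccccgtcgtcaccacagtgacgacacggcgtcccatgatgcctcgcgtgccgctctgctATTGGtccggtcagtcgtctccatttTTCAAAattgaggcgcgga
Ccnb2: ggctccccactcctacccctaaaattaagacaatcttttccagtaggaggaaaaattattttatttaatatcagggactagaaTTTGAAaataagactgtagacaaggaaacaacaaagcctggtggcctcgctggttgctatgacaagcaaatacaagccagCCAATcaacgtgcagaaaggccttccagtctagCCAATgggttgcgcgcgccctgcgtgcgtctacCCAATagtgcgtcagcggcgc

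In the window of *Kif11* each motif occurs once and reads on the other strand, as ATTGG and TTCAAA. That of *Ccnb2* holds 3 copies of CCAAT and 1 of TTTGAA.

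**Figure D4:**
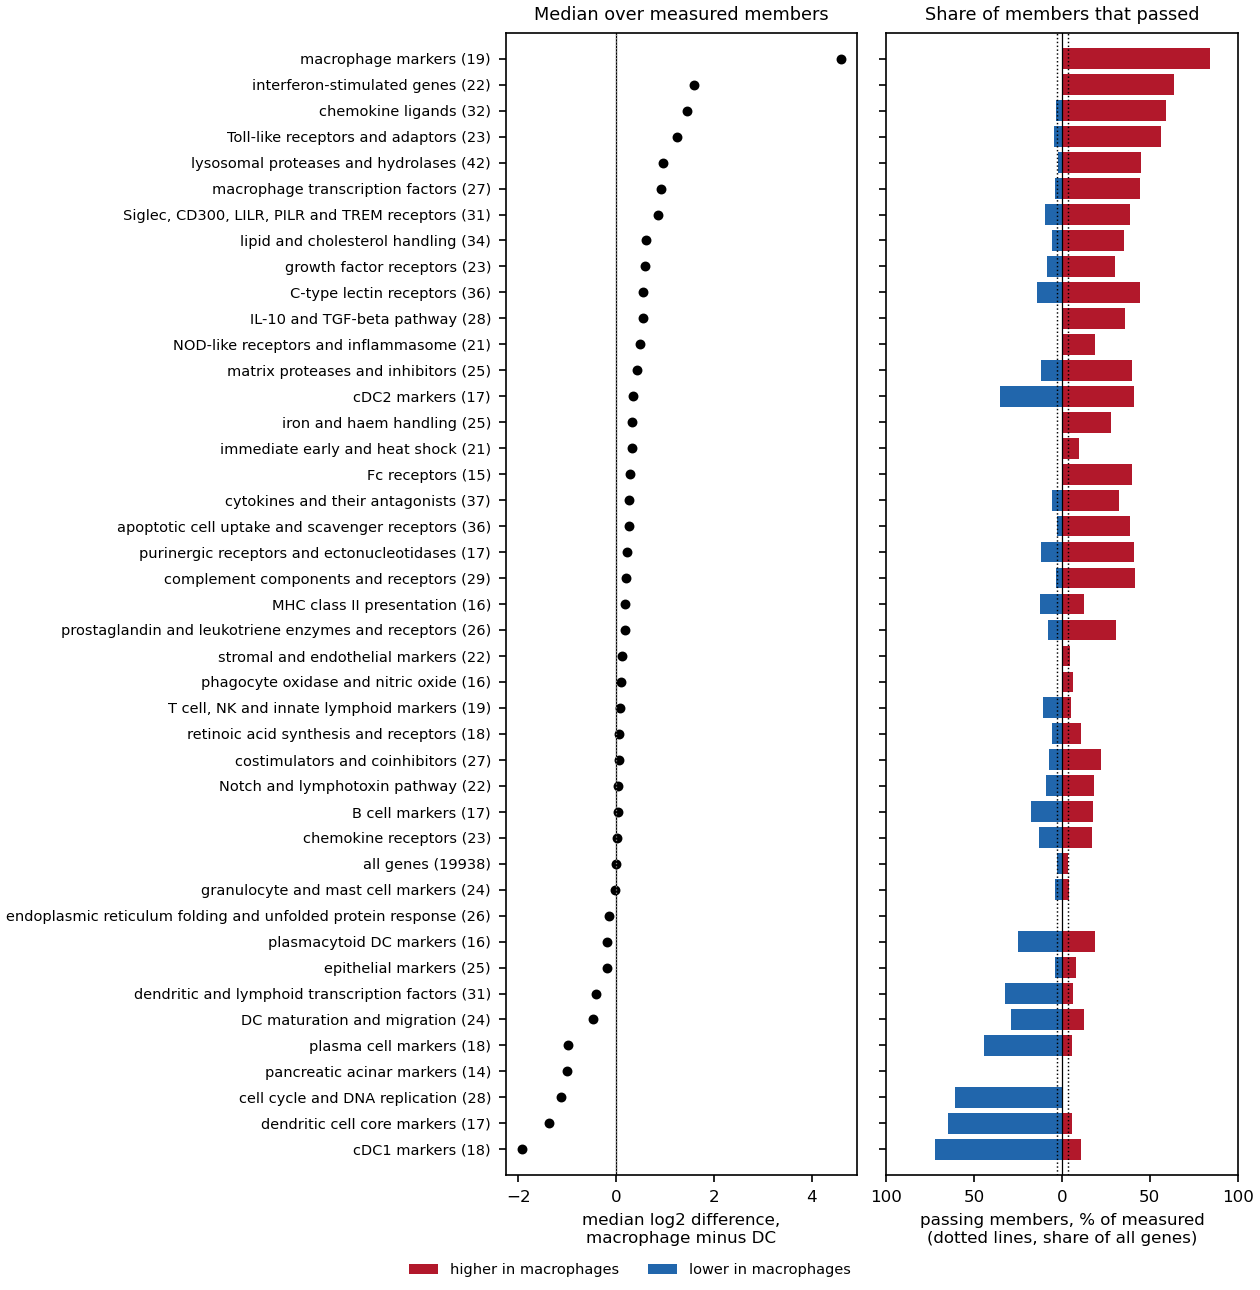
Median log2 difference, macrophage minus CD103-CD11b- DC, over the measured members of each of 42 gene lists and over all genes (left), and the share of members that passed, with higher genes in red to the right and lower genes in blue to the left of 0 (right). Numbers in brackets are measured members, dotted lines mark the shares of all genes (3.73% higher, 2.57% lower), and medians run from 4.60 for macrophage markers to -1.93 for cDC1 markers.

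Markers of other cells were counted too, beside 3.73% higher and 2.57% lower over all genes. Plasma cells secrete antibody and are abundant in the gut. Of 18 plasma cell markers, 8 were lower and 1 higher in mϕ, with a median of -0.98, and the list had mean signals of 9.06, 9.59 and 9.0 on the CD103-CD11b- arrays and 8.02, 8.81 and 7.87 on the mϕ arrays. *Mzb1*, a chaperone of antibody assembly, was at 7.90, 9.69 and 7.74 in mϕ and 9.75, 11.30 and 10.56 in DCs, so that mϕ replicate 2 lay just under the lowest DC array. *Sdc1*, which encodes CD138, was at 5.84, 6.58 and 5.64 against 7.32, 8.41 and 7.29. *Tnfrsf17*, which encodes the receptor BCMA, was at 6.58, 7.47 and 6.87 against 8.32, 9.09 and 8.31. *Jchain*, the joining chain of IgA, was over 11 on all 6 arrays and did not pass (difference -0.51, adjusted p = 0.0924). The member that was higher in mϕ was *Prdm1*, by 1.32. The count of 8 fell to 4 without mϕ replicate 1, without mϕ replicate 3 or without CD103-CD11b- replicate 2, and to 1 when only the 6 arrays entered the fit. *Mzb1* lost its call without mϕ replicate 1 or 3 or CD103-CD11b- replicate 2 or 3, and *Pou2af1*, a B lineage coactivator, without mϕ replicate 1 or 3 or CD103-CD11b- replicate 2. The part of plasma cell RNA in the other results was not tested.

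Of 16 plasmacytoid DC markers, 3 were higher and 4 lower, beside 3.73% and 2.57% of all genes, with a median of -0.19. *Siglech* and *Tcf4*, which define these cells, differed by -0.28 (adjusted p = 0.571) and -0.10 (adjusted p = 0.692), and the list lay at 6.81 to 6.97 on the CD103-CD11b- arrays and 6.61 to 6.95 on the mϕ arrays. Of 17 B cell markers, 3 were higher and 3 lower, with a median of 0.04. *Ms4a1*, which encodes CD20, and *Pax5* lay under 5 on all 6 arrays, while *Bank1*, by 4.24, *Cd72*, by 3.05, and *Cd22*, by 2.35, were higher in mϕ. *Vpreb3* and *Blnk* were lower, with differences of -1.83 and -1.28. *Blnk* lost its call without any one of the 6 arrays other than mϕ replicate 2. Of 19 T cell, NK and innate lymphoid markers, *Cd3g* was higher by 1.44 and *Thy1* and *Il2rb* were lower, with differences of -2.28 and -1.09, and the median was 0.07. *Il2rb* lost its call without CD103-CD11b- replicate 2. Of 24 granulocyte and mast cell markers, 1 was higher, 1 was lower and the median was -0.03, but without CD103-CD11b- replicate 1 there were 2 lower ones, with *Elane*, *Mpo* and *Cpa3* under 5 on all 6 arrays.

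Of 25 epithelial markers, 2 were higher and 1 lower in mϕ, beside 3.73% and 2.57% of all genes, with a median of -0.19. The higher ones were the fatty acid-binding proteins of enterocytes, *Fabp1*, with 10.31, 9.22 and 10.09 in mϕ and 7.69, 6.40 and 7.80 in DCs, and *Fabp2*, by 2.42. *Epcam*, an epithelial adhesion molecule, was at 5.22, 7.39 and 5.86 against 7.67, 7.38 and 7.38. Without mϕ replicate 2, the array rich in epithelial transcripts, 8 markers were lower. *Anpep*, the lower marker on all arrays, was not called without it. Of 14 pancreatic markers none was called by limma, with a median of -1.01, and *Ctrb1*, chymotrypsinogen, ran from 4.62 to 10.10 in mϕ and from 6.85 to 11.74 in DCs. Without the richest array in pancreatic transcripts of each of the 5 populations, which was replicate 2 in mϕ and in CD103-CD11b- DCs, 792 genes were higher and 551 lower in the comparison. Of 22 stromal and endothelial markers, *Lyve1* was higher by 1.40 and none was lower, with a median of 0.13. Of 21 immediate early and heat shock genes, which rise when tissue is digested, *Ier3* and *Junb* were higher by 2.17 and 1.0, none was lower and the median was 0.32. *Junb* lost its call without mϕ replicate 2 or CD103-CD11b- replicate 1. Of 26 genes of protein folding in the endoplasmic reticulum none was called by limma, with a median of -0.15. Whether these transcripts bear on the other lists was not tested.

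A difference between mϕ and CD103-CD11b- DCs can be shared with the other DC subsets or be particular to this subset. CD103-CD11b- DCs were therefore set against the mean of the other 3 DC subsets in the same fit, which also tests whether the mϕ difference depends on the DC subset, as the mϕ arrays cancel. In CD103-CD11b- DCs 143 genes (0.717%) were higher and 60 (0.301%) lower than the mean of the other subsets, together 1.02% of genes. A difference from that mean need not hold against each subset. The CD103-CD11b- arrays enter both comparisons, so their values are given side by side and their overlap is not read. Of the leading genes above, *Pf4*, *Siglec1* and *C5ar1* differed from the other DC subsets by -0.07, -0.06 and 0.00, and *Flt3* and *Kit* by 0.23 and -0.10. None of these 5 passed.

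*Il22ra2* was higher in CD103-CD11b- DCs than in the mean of the other subsets by 3.14 (limma adjusted p = 7.61e-06). Its CD103-CD11b- mean was 10.45. Its means were 9.18 in the CD103-CD11b+ subset, 6.81 and 5.96 in the CD103+CD11b+ and the CD103+CD11b- subset, and 4.33 in mϕ. *S100a4* had its mean of 10.49 close to the 10.47 of CD103-CD11b+ DCs, while the CD103+ subsets were at 7.50 and 6.61. *Cd209d*, a lectin, was at 7.64, 7.18 and 7.77 in CD103-CD11b- DCs, and no array of another population exceeded 6. *Mgl2*, a lectin for galactose sugars, was at 4.87, 4.41 and 4.84 in CD103-CD11b- DCs. Its means were 9.61 in mϕ, 9.08 and 9.12 in the subsets with CD11b, without and with CD103, and 4.75 in CD103+CD11b- cells. *Apol7c*, an apolipoprotein L gene, was at 8.44, 7.24 and 7.65 in CD103-CD11b- DCs and had means of 11.11 in mϕ and 10.14 to 11.40 in the other DC subsets. *Apol10b* was at 3.52 to 3.87, with means of 6.83 in mϕ and 4.60 to 7.35 in the other DCs. For *Mgl2*, *Apol7c* and *Apol10b* the CD103-CD11b- arrays lay below all mϕ arrays. Of the 18 plasma cell markers, 10 exceeded the mean of the other DC subsets in CD103-CD11b- cells, with a median difference of 1.12. The 16 plasmacytoid DC markers had 6 higher and a median of 0.69. *Siglech* and *Tcf4* differed from the other subsets by 1.84 and 1.32, and their mϕ means were 6.0 and 8.53 beside 6.28 and 8.63 in CD103-CD11b- DCs. Of the 28 cell cycle genes limma called none in this comparison, with a median of 0.06, beside -0.01 over all genes.

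**Figure D5:**
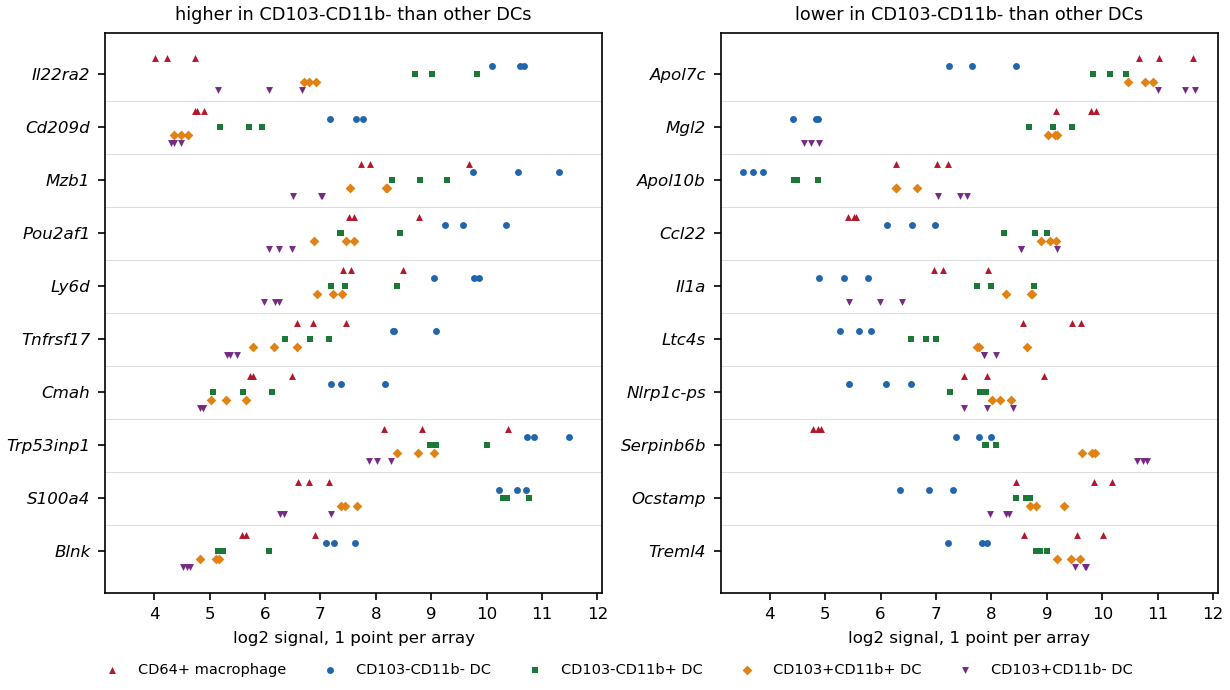
Log2 signal on each of the 15 arrays of the 10 genes with the largest positive (left) and the 10 with the largest negative (right) difference between CD103-CD11b- DCs and the mean of the other 3 DC subsets, among genes that passed in both comparisons. Symbols mark the 5 populations, and CD103-CD11b- DCs (blue circles) lie to the right for *Il22ra2* and *Cd209d* and to the left for *Apol7c* and *Apol10b*.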

How the data were processed

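The authors deposited robust multi-array average (RMA) values, which are background-corrected, quantile-normalized log2 signals per probeset of Affymetrix Mouse Gene 1.0 ST arrays, and these were used as deposited. Of 35556 probesets, 21789 had 1 gene symbol in the platform annotation, 1621 had several and 12146 were not listed. The single-symbol probeset with the highest mean over the 15 arrays stood for each of 19938 genes, 999 of which had more than 1. A model of 5 group means was fitted to all 15 arrays with limma 3.58.1 in R 4.3.3 (lmFit, eBayes), with Benjamini-Hochberg adjustment over all genes. Genes were named by rule: the 15 with the largest difference per direction among those that passed without overlap, up to 4 passing members per direction and the defining members of each list, the sort genes, and the 10 per direction with the largest difference between DC subsets that passed in both comparisons. The comparison and the 42 lists were chosen with earlier results of these data known. Alternatives changed the arrays fitted, the probeset rule, the normalization, a filter on genes under log2 6, the variance model, the threshold, the test and the replicate block. They also left out each mϕ and each CD103-CD11b- array in turn, but no single array of the other DC subsets. The models were tested on simulated data. Promoter sequences came from RefSeq (GRCm38.p6), and figures were drawn with matplotlib 3.10.9 in Python 3.11.15.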

Additional observations from a re-analysis of the deposited data

Results flagged for a closer look

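In 133 genes mϕ passed against CD103-CD11b- DCs, and CD103-CD11b- DCs also passed against the mean of the other 3 DC subsets in limma. The second comparison alone tests whether the mϕ difference depends on the DC subset, and 143 higher and 60 lower genes passed it. Both comparisons use the CD103-CD11b- arrays, so nothing is read from the count of 133. The 20 given here are the 10 per direction with the largest values against the mean of the other subsets. A gene far from that mean can still match a single subset. *S100a4* was close to CD103-CD11b+ DCs and *Mgl2* to CD103+CD11b- DCs. Higher in CD103-CD11b- DCs than that mean were *Il22ra2* (3.14 log2 units), *Cd209d* (2.70), *Mzb1* (2.67), *Pou2af1* (2.62) and *Ly6d* (2.57). Next came *Tnfrsf17* (2.46), *Cmah* (2.32), *Trp53inp1* (2.30), *S100a4* (2.30) and *Blnk* (2.29). *Mzb1*, *Pou2af1* and *Tnfrsf17* are plasma cell markers, and among the CD103-CD11b- arrays that list was highest in replicate 2. Lower were *Apol7c* (-2.97), *Mgl2* (-2.94), *Apol10b* (-2.42), *Ccl22* (-2.27), *Il1a* (-2.22), *Ltc4s* (-2.02), *Nlrp1c-ps* (-1.90), *Serpinb6b* (-1.77), *Ocstamp* (-1.73) and *Treml4* (-1.65). The call of the mϕ difference was lost for *Trp53inp1*, *Blnk*, *Mzb1*, *Pou2af1* and *Ccl22* without single arrays.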

How the results depend on the processing

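The counts of higher and lower genes in both comparisons stayed within 1.5 times of their values under the alternatives run, other than limma's treat, which tests whether a difference exceeds the log2 threshold, and the methods' t-test, and no named gene changed sign when called. Treat gave 319 higher and 132 lower genes in mϕ, and 9 and 8 between CD103-CD11b- DCs and the other DC subsets. With the methods' t-test at a Benjamini-Hochberg adjusted p under 0.05, not 0.01, these counts were 454, 282, 74 and 21. Its DC comparison took the 9 other DC arrays as a single group, so differences among those subsets entered its spread. At an unadjusted p under 0.05 and a size over 1, 1234 genes differed between mϕ and CD103-CD11b- DCs. Leaving out 1 mϕ or CD103-CD11b- array at a time gave 708 to 836 higher and 471 to 585 lower genes. Between the DC subsets these fits gave 109 to 147 and 53 to 70, and there the mϕ arrays enter only the shared spread. Arrays of the other DC subsets were not left out singly, so these ranges do not cover them. With only the 6 arrays in the fit, 636 genes were higher and 414 lower, and after cyclic loess 812 and 452. Without the array richest in pancreatic transcripts of each of the 5 populations, an alternative chosen after seeing the data, the DC subsets differed in 100 and 50 genes. The replicate numbers were not taken to pair the arrays, since same-numbered mϕ and CD103-CD11b- arrays had correlations of -0.01, 0.24 and -0.03 of their deviations from the group means, and only replicate 2 correlated best with its own number. Some lists did follow the number: in all 5 populations the mean over immediate early and heat shock genes was highest in replicate 2 and lowest in replicate 1, and that over cell cycle genes was highest in replicate 3. The replicate block gave 748 higher and 517 lower genes, and 143 and 61 between the DC subsets.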

Other observations

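Gene families outside the lists were counted by the start of their symbols, chosen after their values were seen and so given with no test of the family. More families were counted than are described here, and some went both ways. Genes named *Tnfrsf*, for example, had 3 of 20 measured members higher and 3 lower. Guanylate-binding proteins, which attack microbes inside cells, had 7 of 8 measured members higher in mϕ and none lower, with a median of 2.47, beside 3.73% of all genes higher. *Gbp4* and *Gbp7* had means of 9.28 and 9.18 in mϕ and 5.81 and 5.95 in CD103-CD11b- DCs. Schlafen genes, which restrict growth and viral RNA, had 3 of 9 higher (*Slfn1*, *Slfn8*, *Slfn5*) and none lower, with a median of 0.67. Of 19 MS4A membrane protein genes, 6 were higher and none was lower, with a median of 0.31, and *Ms4a4a* had means of 9.34 and 4.06.

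S100 calcium-binding proteins of the A group had 4 of 14 lower in mϕ and none higher, with a median of -0.19, beside 2.57% of all genes lower. Besides *S100a4* and *S100a6* these were *S100a11*, with means of 10.80 in mϕ and 12.42 in CD103-CD11b- DCs, and *S100a10*, with 8.67 and 10.28. Septins, which form filaments under the cell membrane, had 4 of 12 lower (*Septin6*, *Septin1*, *Septin3*, *Septin9*) and *Septin8* higher, with a median of -0.12. *Septin6* had means of 5.27 in mϕ and 8.28 in CD103-CD11b- DCs. Of 21 genes of the vacuolar proton pump, which acidifies lysosomes, limma called none, with a median of 0.21. Of 55 ribosomal protein genes, *Rpl12* was lower and none was higher.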
